A study of Mus musculus with 4 samples.

Results

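The proteasome subunit genes were followed in mouse epiblast stem cells after knockdown of Tox4, which encodes an HMG-box chromatin protein. Members were the rows of the expression table whose symbol begins with Psma, Psmb, Psmc, Psmd, Psme, Psmf or Psmg and a number, with the immunoproteasome genes Psmb8, Psmb9 and Psmb10 and the activator gene Psme1 left out. There were 45 members among 15429 genes: 7 Psma, 8 Psmb, 6 Psmc and 14 Psmd genes, 9 Psme, Psmf and Psmg genes, and Psmc3ip. Psmc3ip matched the pattern only, since it encodes a partner of the meiotic recombinases and not a proteasome subunit. Psmb7-ps2, annotated as a transcribed processed pseudogene, was listed at 0 in 3 libraries and at 0.182 FPKM, on 2 reads, in Luc replicate 2. It was the only member below the limit for testing, a mean of 1 FPKM (fragments scaled to gene length and to sequencing depth) over the 4 libraries. The other 44 members were tested with 12403 genes in all.

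The knockdown cells received Tox4 esiRNA (n = 2 libraries) and the control cells received Luc esiRNA against luciferase (n = 2). An esiRNA is a pool of short interfering RNAs cut by an enzyme from long double-stranded RNA. Both groups were the same single line, OE7, derived from the post-implantation embryo and carrying an Oct4-Gip transgene, a fluorescent reporter of Oct4. Cells of both groups were at passages 21 to 25, grew on fibronectin with Activin A at 20 ng/ml and Fgf2 at 12 ng/ml, and received 1000 ng of esiRNA with 2 µl of lipofectamine. The time from transfection to harvest is not given in the sources used here. Nothing in the labels tells whether libraries with the same esiRNA were grown separately, and the p-values here therefore reflect variation among these 4 libraries, possibly technical alone.

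Tox4 itself was at 8.65 and 8.89 FPKM in the Tox4 esiRNA libraries, against 16.7 and 17.5 FPKM in the Luc esiRNA libraries, so part of the transcript was still present. On the log2(FPKM + 1) scale it fell by 0.89 (SE 0.05, limma adjusted p = 0.00228). Each library held, as whole reads recovered from its FPKM values, 14739242 and 12778056 in Tox4 replicates 1 and 2, against 19008829 and 14998211 in Luc replicates 1 and 2. All 8 epiblast markers examined, among them Pou5f1, Nanog and Fgf5, were present in every library, with a summed level of 1248 to 1284 FPKM. The 5 fibroblast markers examined summed to 9.99 to 11.9 FPKM.

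The proteasome is the protease that degrades ubiquitin-tagged proteins. Its core is a barrel: outer rings of Psma (alpha) subunits gate the entry, and inner rings of Psmb (beta) subunits hold the active sites of Psmb5, Psmb6 and Psmb7. A regulatory particle caps the barrel, with a base of Psmc ATPases that unfold the substrate and a lid of Psmd subunits around the deubiquitinase Psmd14, while Psme proteins are alternative caps and Psmg proteins help to assemble the core. Interferon replaces the active beta subunits by Psmb8, Psmb9 and Psmb10 and induces the paired cap proteins Psme1 and Psme2. In human embryonic stem cells the lid subunit PSMD11 has been linked to high proteasome activity.

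Promoter sequence was available for 36 of the 45 members, as 250 bases before to 50 bases after the RefSeq start on GRCm38.p6. Shown first are Psme2, the member past the threshold, and Psme1, its partner that the rule leaves out. They are followed by Psme3, the related cap gene that was not past it, by Psmg4, the member with the largest positive fold change, and by Psmb4, an abundant core gene. Capitals mark matches, on either strand, to the motifs searched. The windows are chr14:55591052-55591351 (minus strand) for Psme2, chr14:55578244-55578543 (plus) for Psme1, chr11:101315963-101316262 (plus) for Psme3, chr13:34162714-34163013 (plus) for Psmg4 and chr3:94886909-94887208 (minus) for Psmb4, each 5′ to 3′ along the gene.
Psme2: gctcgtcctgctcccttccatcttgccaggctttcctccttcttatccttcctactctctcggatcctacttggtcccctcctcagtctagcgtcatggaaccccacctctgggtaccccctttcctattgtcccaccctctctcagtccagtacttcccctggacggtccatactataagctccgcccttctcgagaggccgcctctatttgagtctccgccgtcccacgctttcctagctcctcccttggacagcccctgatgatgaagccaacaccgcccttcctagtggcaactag
Psme1: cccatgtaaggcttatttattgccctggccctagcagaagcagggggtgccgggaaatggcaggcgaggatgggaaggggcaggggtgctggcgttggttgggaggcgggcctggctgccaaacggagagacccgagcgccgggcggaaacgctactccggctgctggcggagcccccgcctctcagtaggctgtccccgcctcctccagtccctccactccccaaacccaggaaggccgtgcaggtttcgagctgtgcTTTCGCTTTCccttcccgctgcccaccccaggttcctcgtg
Psme3: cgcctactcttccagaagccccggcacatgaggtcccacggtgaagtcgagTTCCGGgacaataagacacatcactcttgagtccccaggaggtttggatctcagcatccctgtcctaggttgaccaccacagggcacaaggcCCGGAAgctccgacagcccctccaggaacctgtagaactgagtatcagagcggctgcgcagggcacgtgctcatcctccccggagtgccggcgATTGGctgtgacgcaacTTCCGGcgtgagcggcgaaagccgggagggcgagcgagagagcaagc
Psmg4: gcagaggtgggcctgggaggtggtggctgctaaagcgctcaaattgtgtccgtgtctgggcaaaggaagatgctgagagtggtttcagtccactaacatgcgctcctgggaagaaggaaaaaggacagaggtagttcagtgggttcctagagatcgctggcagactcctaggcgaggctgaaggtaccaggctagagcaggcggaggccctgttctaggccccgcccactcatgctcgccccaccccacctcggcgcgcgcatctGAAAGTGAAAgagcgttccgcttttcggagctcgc
Psmb4: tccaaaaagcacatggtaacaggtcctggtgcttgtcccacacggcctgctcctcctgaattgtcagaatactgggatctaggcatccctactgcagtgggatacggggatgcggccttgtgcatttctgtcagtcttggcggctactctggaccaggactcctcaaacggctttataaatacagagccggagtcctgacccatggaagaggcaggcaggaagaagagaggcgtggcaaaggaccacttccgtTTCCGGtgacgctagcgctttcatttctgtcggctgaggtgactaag

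The ETS core CCGGAA was in 20 of 36 member promoters (55.6%), against 15.2% of all 27025 promoters and 29.3% of the 8882 promoters of tested genes. It was in 4 of 5 Psmc, 7 of 12 Psmd and 5 of 7 Psme, Psmf and Psmg promoters, and in 2 of 7 Psma and 1 of 4 Psmb promoters. The promoter of Psmc3ip, which is no subunit, held it too and is counted among the 20. The median log2 fold change was -0.04 for the 20 members with the core and -0.05 for the 16 without it. The interferon-stimulated response element, GAAA followed after 2 bases by GAAA, was in the promoters of Psmb3, Psmd4, Psmd9 and Psmg4 (11.1%, against 2.65% of tested genes' promoters) and in that of Psme1. The printed Psme2 window held no match to any of the 6 motifs. The antioxidant response element TGACNNNGC, a site type of Nfe2l1, was in 6 member promoters (16.7%, against 15.0% of tested genes' promoters): Psmb5, Psmb6, Psmc6, Psmd12, Psmd9 and Psme4. The gamma-activated site TTCNNNGAA was in 2 (5.56%, against 6.63%), the CCAAT box CCAAT in 13 (36.1%, against 39.5%) and the nuclear respiratory factor 1 palindrome in 2 (Psma2 and Psmg1, 5.56%, against 2.23%). A match is a match of letters in this window and no evidence of binding. Matches to different motifs may overlap.

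Among the 44 tested members, 0 were higher and 1, Psme2, was lower after Tox4 esiRNA (limma, adjusted p under 0.05 over all genes tested), against 1.89% and 2.62% of all genes tested (4.51% in either direction). An unadjusted limma p under 0.05 was found for 6 of 44 members, against 21.6% of all genes. On the recovered reads, limma-voom called 0 members higher and 4 lower (Psme2, Psmb4, Psma7 and Psmd8), against 5.95% and 5.87% of all genes. In bulk RNA, fewer cells of a type and less RNA per cell cannot be told apart. The ratio of group means lay between 0.842 and 1.13 for every tested member, and within 10% of equality for 40 of 44. The 95% interval of the log2 fold change lay within 0.3 of 0 for 41 of 44 members, the exceptions being Psme2, Psme2b-ps and Psmg3. Summed over the 44 members, the level was 3984 and 4125 FPKM with Tox4 esiRNA, against 4238 and 4097 FPKM with Luc esiRNA. The sums overlapped (exact permutation test, two-sided, p = 0.667, where 0.333 is the smallest p that 2 against 2 libraries allow).

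**Figure D1:**
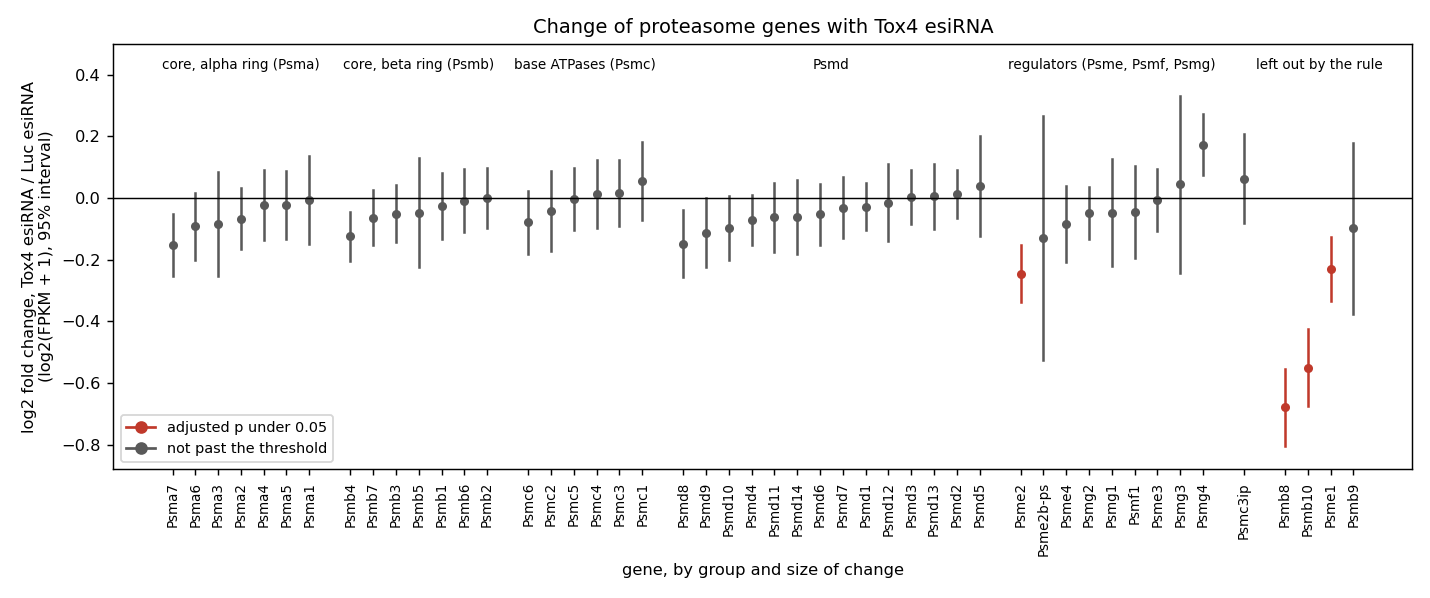
Log2 fold change, Tox4 over Luc esiRNA, on the log2(FPKM + 1) scale with its 95% interval from limma, for each of the 44 tested members by group. Psme2 at -0.24 is the one member past the adjusted threshold, and Psmg4 at 0.17 is the highest member. The last block holds Psmb8, Psmb9, Psmb10 and Psme1, which the rule leaves out. Of these, Psmb8, Psmb10 and Psme1 are past the threshold.

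The fold change was below 0 for 33 of 44 members (median -0.04), against 51.2% of all genes tested (median -0.0034). Groups of libraries did not overlap for 17 members, 38.6%, against 52.0% of all genes: 16 were lower with Tox4 esiRNA, against 26.7% of all genes, and 1, Psmg4, was higher, against 25.3%. The direction rested on single libraries. The fold change was below 0 for 21 of 44 members without Tox4 replicate 1 and for 24 without Luc replicate 1, against 41 without Tox4 replicate 2 and 38 without Luc replicate 2. Tox4 replicate 1 was below Tox4 replicate 2 for 36 of 44 members (median difference -0.06 on the log2 scale), and Luc replicate 1 was above Luc replicate 2 for 35 (median 0.04), where the medians over all genes were near 0 (-0.0002 between the Tox4 libraries and -0.0011 between the Luc libraries). These differences within a group were as large as the median difference between the groups.

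**Figure D2:**
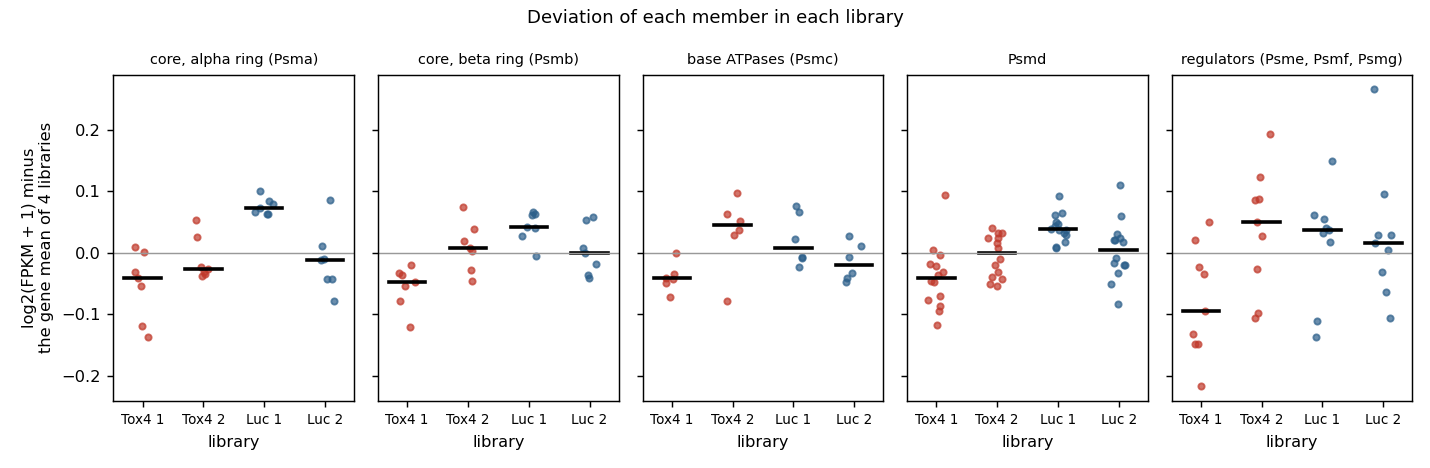
Deviation of each tested member but Psmc3ip from its own mean over the 4 libraries, on the log2(FPKM + 1) scale, by group. The Tox4 esiRNA libraries are left of the Luc esiRNA libraries. Over these 43 members the median deviation is -0.04 in Tox4 replicate 1, 0.02 in Tox4 replicate 2, 0.04 in Luc replicate 1 and -0.0073 in Luc replicate 2.

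**Figure D3:**
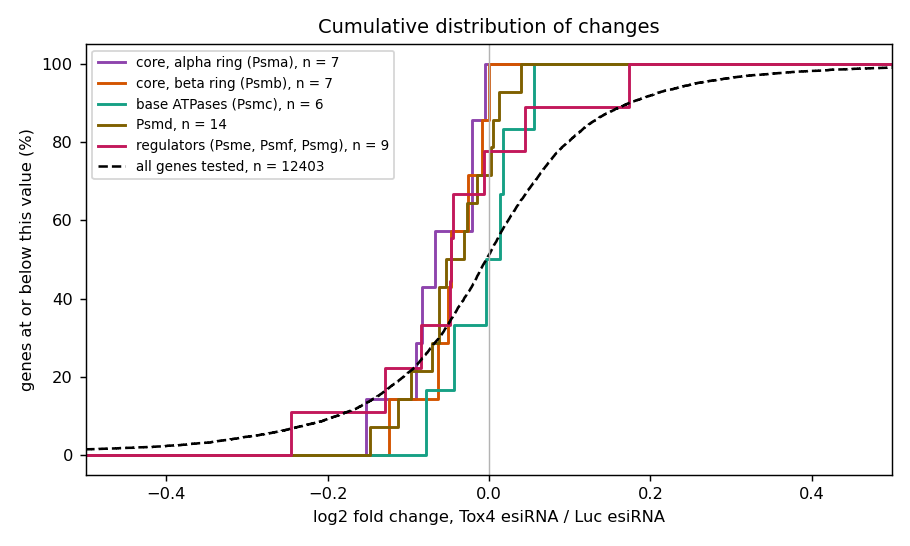
Cumulative share of the members of each group, without Psmc3ip, and of all 12403 genes tested by log2 fold change, Tox4 over Luc esiRNA. These 43 members span a narrow range, from -0.24 to 0.17, and 33 of 43 are below 0.

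The Psma genes, which form the gated outer rings, were all present, and none of the 7 passed the threshold. Their fold changes ranged from -0.15 to -0.0052 with a median of -0.07, and 7 of 7 were below 0, against 51.2% of all genes tested. Groups did not overlap for 3 of 7 (42.9%), against 52.0% of all genes. Psma2, the most abundant, had 203 and 205 FPKM with Tox4 esiRNA, against 221 and 207 FPKM with Luc esiRNA. Its groups did not touch, though Luc replicate 2 was close to the Tox4 libraries (log2 fold change -0.07, limma adjusted p = 0.405). Psma7 had 64.4 and 68.4 FPKM with Tox4 esiRNA, against 73.4 and 74.4 FPKM with Luc esiRNA. Both Tox4 libraries were below both Luc libraries (log2 fold change -0.15, SE 0.04, limma adjusted p = 0.1002), and 1.09% of the 50-base stretches of Psma7 occur in other annotated genes. Psma3, the least abundant, had 23.3 and 26.7 FPKM with Tox4 esiRNA, against 27.1 and 25.9 FPKM with Luc esiRNA. Tox4 replicate 2 lay between the Luc libraries, so the groups overlapped.

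Mean levels over the 4 libraries, on the FPKM scale, which is per length, were 209 for Psma2, 186 for Psma6, 120 for Psma5, 112 for Psma1, 70.1 for Psma7, 45.5 for Psma4 and 25.7 for Psma3. That is an 8.13-fold range for proteins that occur in equal number in the ring. The ranges of the 4 libraries did not overlap for 5 of the 6 neighbouring pairs in this order. Psma3, the lowest, shares 15.4% of its 50-base stretches with other genes, and Psma2, the highest, shares 2.95%. The length worked back from the FPKM values was 38.1% of the annotated exon bases for Psma3 and 25.7% for Psma2. What these contribute to the range was not tested.

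The Psmb genes of the inner rings spanned a wider 14.4-fold range, and none of the 7 tested passed the threshold. Their median fold change was -0.05, with 6 of 7 below 0 (85.7%, against 51.2% of all genes tested). Groups did not overlap for 3 of 7 (42.9%, against 52.0% of all genes). Psmb4, an inner-ring subunit without an active site, had 226 and 232 FPKM with Tox4 esiRNA, against 250 and 249 FPKM with Luc esiRNA. The groups were well apart relative to their spread, but the fold change of -0.12 did not pass (limma adjusted p = 0.0950). Psmb2 had 135 and 139 FPKM with Tox4 esiRNA, against 141 and 133 FPKM with Luc esiRNA. Its Tox4 libraries lay between the Luc libraries. Psmb5, the chymotrypsin-like active site, had 15.2 and 17.6 FPKM with Tox4 esiRNA, against 16.6 and 17.3 FPKM with Luc esiRNA, and the groups overlapped.

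The other active-site genes did not pass the threshold either. Psmb6 had 189 and 200 FPKM with Tox4 esiRNA, against 199 and 192 FPKM with Luc esiRNA. Psmb7 had 233 and 234 FPKM with Tox4 esiRNA, against 250 and 239 FPKM with Luc esiRNA. Psmb6 overlapped between the groups and Psmb7 did not, with a 95% interval of -0.15 to 0.02 for the log2 fold change of Psmb7. Mean levels were 239 FPKM for both Psmb4 and Psmb7, the trypsin-like active site, 207 for Psmb1, 195 for Psmb6, the caspase-like active site, 137 for Psmb2, 62.4 for Psmb3 and 16.7 for Psmb5. The low level of Psmb5 rests on 109 to 153 reads per library over a length of 474 bases, worked back from the FPKM values, against 899 annotated exon bases. Of its 50-base stretches 54.1% occur elsewhere in annotated genes. What this length and these shared stretches contribute to its low level was not tested. Over all members, 16 had a worked-back length under 60% of their annotated exon bases, 12 shared over 10% of their 50-base stretches with other genes and 18 shared none. Exons of 9 members overlap exons on the opposite strand, among them Psmb7 with Nek6, Psmd13 with Sirt3 and Psmd1 with Htr2b.

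**Figure D4:**
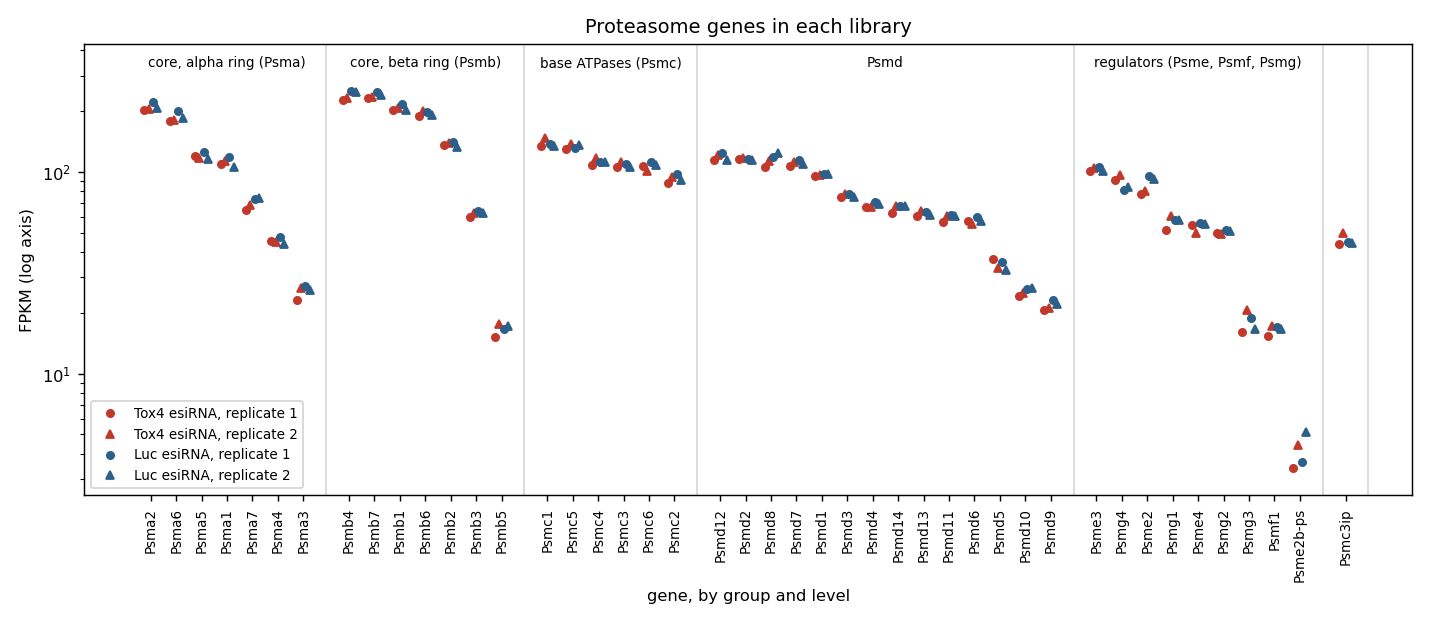
FPKM of each tested member in each library on a log axis, by group, with the Tox4 esiRNA libraries left of the Luc esiRNA libraries. The Psmc genes lie close together, while the Psma and Psmb genes spread over an 8.13-fold and a 14.4-fold range.

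The Psmc genes, the 6 ATPases of the base, had the narrowest range, 1.49-fold. Mean levels were 138 FPKM for Psmc1, 134 for Psmc5, 112 for Psmc4, 108 for Psmc3, 107 for Psmc6 and 93.0 for Psmc2. Only 2 of the 5 neighbouring pairs had library ranges that did not overlap. Their median fold change was 0.0049, and none passed the threshold. Of the 6 genes, 3 were below 0, against 51.2% of all genes tested. Non-overlapping groups were found for 1 of 6 (16.7%), against 52.0% of all genes. Psmc1 had 134 and 148 FPKM with Tox4 esiRNA, against 137 and 134 FPKM with Luc esiRNA, and Tox4 replicate 2 stood above the other 3 libraries. Psmc6 had 107 and 101 FPKM with Tox4 esiRNA, against 112 and 108 FPKM with Luc esiRNA. It was the one Psmc gene whose groups did not overlap (log2 fold change -0.08, limma adjusted p = 0.343). Psmc2 had 88.3 and 94.8 FPKM with Tox4 esiRNA, against 98.0 and 90.8 FPKM with Luc esiRNA, which overlapped.

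None of the 14 Psmd genes passed the threshold. Their median fold change was -0.04, with 10 of 14 below 0 (71.4%, against 51.2% of all genes tested). Groups did not overlap for 6 of 14 (42.9%, against 52.0% of all genes). By role, Psmd1, Psmd2 and Psmd4 belong to the base and Psmd5, Psmd9 and Psmd10 are assembly chaperones of the base, and the other 8 form the lid. The median was -0.04 for the 8 lid genes and -0.0038 for the 9 base genes, Psmc and Psmd together. Psmd12, a lid scaffold and the most abundant at 119 FPKM, had 115 and 121 FPKM with Tox4 esiRNA, against 124 and 115 FPKM with Luc esiRNA. Its groups overlapped. Psmd8, a lid subunit, had 106 and 113 FPKM with Tox4 esiRNA, against 118 and 124 FPKM with Luc esiRNA. Both Tox4 libraries were below both Luc libraries, but the difference did not pass (log2 fold change -0.15, limma adjusted p = 0.128).

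Psmd14, the deubiquitinase that removes ubiquitin chains, had 62.3 and 68.1 FPKM with Tox4 esiRNA, against 68.0 and 68.0 FPKM with Luc esiRNA, so Tox4 replicate 2 was level with the controls. Psmd11 had 56.2 and 60.7 FPKM with Tox4 esiRNA, against 61.3 and 60.8 FPKM with Luc esiRNA (log2 fold change -0.06, limma adjusted p = 0.499). Psmd4, a ubiquitin receptor, had 67.1 and 66.7 FPKM with Tox4 esiRNA, against 71.0 and 69.6 FPKM with Luc esiRNA, which did not overlap. The chaperones were the least abundant Psmd genes. Psmd9 had 20.7 and 21.1 FPKM with Tox4 esiRNA, against 23.2 and 22.0 FPKM with Luc esiRNA (log2 fold change -0.11, limma adjusted p = 0.229). Of its exon bases, 1849 overlap those of Gm26745 on the opposite strand. Psmd5 had 37.0 and 33.3 FPKM with Tox4 esiRNA, against 35.7 and 32.6 FPKM with Luc esiRNA, which overlapped.

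The Psmd genes spanned a 5.46-fold range of mean levels. Psmd12 was followed by Psmd2 at 116 FPKM, Psmd8 at 115, Psmd7 at 110 and Psmd1 at 96.7. Psmd2 and Psmd1 encode the large scaffolds of the base. The middle of the order was Psmd3 at 76.5 FPKM, Psmd4 at 68.6, Psmd14 at 66.6, Psmd13 at 62.3, Psmd11 at 59.7 and Psmd6 at 57.2, and the chaperones followed with Psmd5 at 34.7, Psmd10 at 25.6 and Psmd9 at 21.7. Library ranges did not overlap for 6 of the 13 neighbouring pairs, so much of this order lies within the spread. Psmd10, known as gankyrin, had 24.2 and 25.2 FPKM with Tox4 esiRNA, against 26.3 and 26.7 FPKM with Luc esiRNA, which did not overlap. Psmc3ip, the member that is no subunit, had 44.1 and 49.5 FPKM with Tox4 esiRNA, against 45.0 and 44.4 FPKM with Luc esiRNA, which overlapped.

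Psme2 (ENSMUSG00000079197, chromosome 14, 55587441 to 55591113, minus strand, GRCm38) encodes a subunit of the interferon-inducible cap and was the one member past the adjusted threshold in the limma test on FPKM. It had 77.7 and 80.4 FPKM with Tox4 esiRNA, against 95.6 and 92.1 FPKM with Luc esiRNA, on 1773 and 1591 reads against 2815 and 2139. The groups did not overlap, and the gap between them exceeded the spread within either. The means were 79.0 ± 1.93 FPKM with Tox4 esiRNA and 93.9 ± 2.51 FPKM with Luc esiRNA (SD, n = 2 each; log2 fold change -0.24, SE 0.04, 95% interval -0.34 to -0.15, limma adjusted p = 0.0296). The call was lost with no intensity trend (limma adjusted p = 0.103), without Luc replicate 1 (0.174), without Luc replicate 2 (0.116) and without Tox4 replicate 1 (0.0604), with the direction kept. Of its 50-base stretches, 28.3% occur in 2 other genes.

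Of 4 leukocyte markers listed, Cd68 and Tyrobp had values. Their summed level was 7.28 and 7.85 FPKM with Tox4 esiRNA, against 11.4 and 15.3 FPKM with Luc esiRNA. Cd68 alone had 7.28 and 7.85 FPKM with Tox4 esiRNA, against 11.4 and 12.9 FPKM with Luc esiRNA. Both Tox4 libraries were below both Luc libraries for Cd68, as for 26.7% of all genes tested. Tyrobp was listed at 0 in 3 libraries and at 2.41 FPKM in Luc replicate 2, so its groups overlapped. The part of these markers in the result was not tested.

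Psme2b-ps had 3.41 and 4.44 FPKM with Tox4 esiRNA, against 3.66 and 5.16 FPKM with Luc esiRNA, on 39 to 60 reads, and shares 69.3% of its 50-base stretches with 2 other genes. It is annotated as protein coding under the name Psme2b in GENCODE M21. Psme3, the nuclear relative of Psme2 and the most abundant gene of this set, had 101 and 105 FPKM with Tox4 esiRNA, against 106 and 101 FPKM with Luc esiRNA. Its groups overlapped, and the ratio of Psme2 to Psme3 was 0.769 ± 0.00444 with Tox4 esiRNA and 0.910 ± 0.00689 with Luc esiRNA (SD, n = 2 each). Psme4, the large single-chain cap, had 54.6 and 49.9 FPKM with Tox4 esiRNA, against 55.9 and 54.9 FPKM with Luc esiRNA.

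The core assembly chaperones Psmg1 to Psmg4 did not pass the threshold, and 2 of 4 were below 0. Psmg4 had 91.1 and 96.0 FPKM with Tox4 esiRNA, against 81.4 and 84.2 FPKM with Luc esiRNA. It was the only member whose Tox4 libraries were both above both Luc libraries (log2 fold change 0.17, SE 0.04, limma adjusted p = 0.0733), on 335 to 423 reads over a worked-back length of 267 of 555 exon bases. Psmg3 had 16.2 and 20.7 FPKM with Tox4 esiRNA, against 18.8 and 16.7 FPKM with Luc esiRNA, which overlapped. Psmg1 had 51.7 and 60.2 FPKM with Tox4 esiRNA, against 57.4 and 57.9 FPKM with Luc esiRNA, and Psmg2 had 49.6 and 49.5 FPKM with Tox4 esiRNA, against 51.5 and 50.9 FPKM with Luc esiRNA. Psmf1, an inhibitor of the core, had 15.4 and 17.1 FPKM with Tox4 esiRNA, against 17.0 and 16.6 FPKM with Luc esiRNA. The 9 Psme, Psmf and Psmg genes had a median fold change of -0.05. Of these, 7 of 9 were below 0 (77.8%, against 51.2% of all genes tested). Their levels spanned a 24.7-fold range, from 103 FPKM for Psme3 to 4.17 FPKM for Psme2b-ps. The width rests on Psme2b-ps, since the next lowest gene, Psmf1, was at 16.5 FPKM.

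The 4 genes that the rule leaves out were set beside partners among the members. These were the constitutive forms for Psmb8, Psmb9 and Psmb10, and the other cap subunit, Psme2, for Psme1. Psmb8, which replaces Psmb5, had 11.1 and 11.8 FPKM with Tox4 esiRNA, against 19.1 and 18.7 FPKM with Luc esiRNA. The fold change was -0.68 on the log2 scale (limma adjusted p = 0.00402) and was past the threshold in every alternative run. Its ratio to Psmb5 was 0.699 ± 0.0393 with Tox4 esiRNA and 1.12 ± 0.0493 with Luc esiRNA (SD, n = 2 each). Psmb5 rests on 109 to 153 reads per library over 474 of 899 exon bases, with 54.1% of its 50-base stretches shared. What this contributes to the size of the ratio was not tested. Psmb10, which replaces Psmb7, was at 0.126 ± 0.00723 of Psmb7 with Tox4 esiRNA and 0.178 ± 0.00898 with Luc esiRNA (SD, n = 2 each). Psmb10 itself fell by 0.55 on the log2 scale (limma adjusted p = 0.00792), and the call was lost with no intensity trend and without either Luc library (highest limma adjusted p = 0.0625). Psmb9, which replaces Psmb6, had 4.67 and 4.33 FPKM with Tox4 esiRNA, against 5.54 and 4.30 FPKM with Luc esiRNA, which overlapped (log2 fold change -0.10, limma adjusted p = 0.678). Psme1 had 62.0 and 65.6 FPKM with Tox4 esiRNA, against 76.3 and 73.7 FPKM with Luc esiRNA. It fell by 0.23 on the log2 scale (limma adjusted p = 0.0433), a call lost with no filter, with no trend, under the replicate block and without Luc replicate 1, Luc replicate 2 or Tox4 replicate 1 (up to 0.216). The ratio of Psme2 to Psme1, subunits of 1 cap, was 1.24 ± 0.0201 with Tox4 esiRNA and 1.25 ± 0.00262 with Luc esiRNA (SD, n = 2 each), so the pair kept its proportion within the spread.

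**Figure D5:**
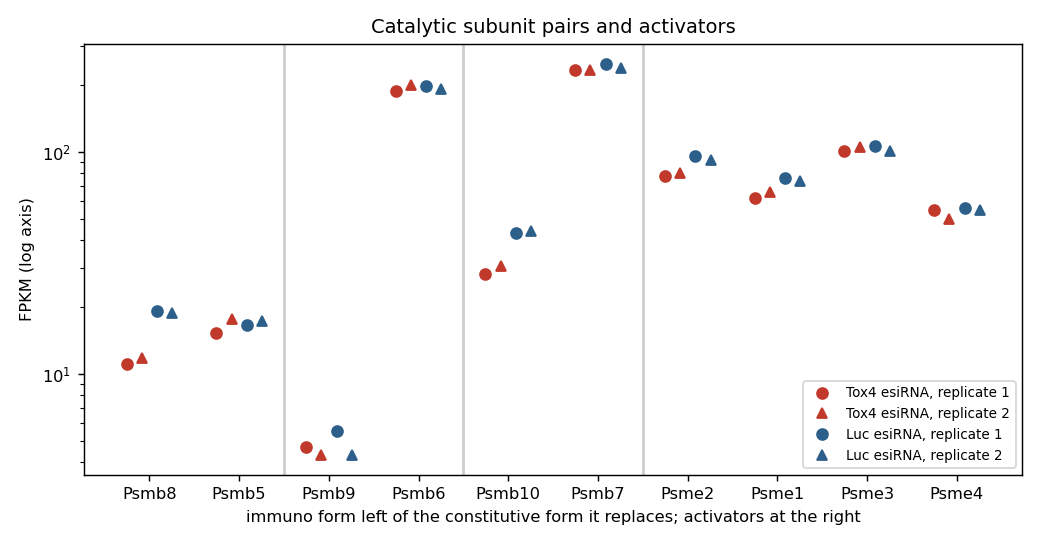
FPKM per library on a log axis for Psmb8, Psmb9 and Psmb10, each beside its constitutive partner, and for Psme1 to Psme4. The Tox4 esiRNA libraries are left of the Luc esiRNA libraries. The ratio of Psmb8 to Psmb5 averages 0.699 with Tox4 esiRNA and 1.12 with Luc esiRNA, while that of Psme2 to Psme1 averages 1.24 and 1.25. Psmb5 rests on 109 to 153 reads per library.

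Proteasome partners outside the symbol rule were read from a list of 30 genes, of which 29 were tested, and Paaf1 was not analysed here. Of the 29, 0 were higher and 0 lower at the adjusted threshold, against 1.89% and 2.62% of all genes tested. Only 2, Ubb and Uchl5, had an unadjusted limma p under 0.05, against 21.6% of all genes. Limma-voom called 0, against 11.8% of all genes. The median fold change was -0.0084. Nfe2l1, the transcription factor that raises proteasome genes when proteasome activity is short, had 107 and 107 FPKM with Tox4 esiRNA, against 107 and 110 FPKM with Luc esiRNA (log2 fold change -0.03, limma adjusted p = 0.697). Adrm1, a ubiquitin receptor of the base, had 20.8 and 21.8 FPKM with Tox4 esiRNA, against 20.2 and 20.2 FPKM with Luc esiRNA, which did not overlap. Shfm1, a small lid subunit, had 765 and 832 FPKM with Tox4 esiRNA, against 794 and 802 FPKM with Luc esiRNA. This level is per length and rests on 1085 and 1023 reads, against 1452 and 1158. Psmb4, at 226 to 250 FPKM, had more reads, 3583 to 5759 per library. What gene length contributes to the high level of Shfm1 was not tested. Pomp, which helps to mature the core, had 150 and 137 FPKM with Tox4 esiRNA, against 145 and 150 FPKM with Luc esiRNA. Neither Shfm1 nor Pomp separated the groups.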

How the data were processed

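The authors deposited FPKM values of 15429 genes for 4 libraries; the per-library files and the series table held identical values. Per the submitters' processing notes, CASAVA 1.8, STAR 2.3.0e and the build GRCm38.p1 were used. The counting program, annotation, use of strand and treatment of reads with several matches were not given in the sources used here.

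Genes averaging 1 FPKM or more were tested on log2(FPKM + 1) with limma 3.58.1 in R 4.3.3 (two-sided, intensity trend, Benjamini-Hochberg adjustment over 12403 genes, threshold 0.05, no covariate, 2 residual degrees of freedom). A fold change on this scale understates the change of low genes. Values were whole multiples of 1 read for 100% of the 15126 genes with a value (largest relative error 5.77e-15, whole gene length within 0.02 bases), which gave reads, lengths and a limma-voom alternative; 689 genes needed a chosen common factor. Replicates differed beyond sampling noise (chi-square per degree of freedom 1.96 between Tox4 and 1.64 between Luc libraries). The script was tested on simulated data. Positions, exon bases and shared 50-base stretches came from GENCODE M21 on GRCm38, and promoters from RefSeq.

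Members with the highest and lowest level and the largest positive and negative fold change of each group, and every member past the threshold, were given per library by rule, and others were added for their roles after their values were seen. The members, gene lists and tests were chosen with earlier results of these data known. 1 gene of the partner list is not reported by name here.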

Additional observations from a re-analysis of the deposited data

How the results depend on the processing

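Psme2 was the only member past the threshold in every limma fit on FPKM that called one. The number of members lower was 0 with no intensity trend, 4 in limma-voom on the recovered reads (Psme2, Psmb4, Psma7 and Psmd8; 11.8% of all genes called) and 0 to 1 when any 1 library was left out. No member was higher under any alternative run. Of the partner list, 0 to 1 were lower when 1 library was left out. Over all genes, 146 were higher and 202 lower with no filter on low values, 33 and 45 with no trend, 738 and 728 in limma-voom, and 27 to 176 and 34 to 296 with 1 library left out. The group medians with 1 library left out were -0.11 to -0.022 for Psma, -0.068 to -0.0057 for Psmb, -0.041 to 0.048 for Psmc, -0.066 to -0.015 for Psmd and -0.12 to 0.024 for Psme, Psmf and Psmg genes. Fold changes near 0 turned sign: Psmb2 was at -0.0027 in limma-voom and Shfm1 at 0.0020 with median-of-ratios scaling. Ranges with 1 library left out were followed for the members given by rule and for Nfe2l1, Adrm1, Shfm1 and Pomp. They were also followed for Tox4 and the 4 genes left out by the rule. Among these genes, the ranges that crossed 0 were -0.18 to 0.012 for Psma3, -0.14 to 0.050 for Psmb5 and -0.040 to 0.041 for Psmb2. Those of Psmc1 (-0.014 to 0.13), Psmc2 (-0.097 to 0.011), Psmd12 (-0.072 to 0.043) and Psmd5 (-0.034 to 0.11) crossed it too. So did those of Psme3 (-0.041 to 0.029), Psme2b-ps (-0.33 to 0.071), Shfm1 (-0.061 to 0.060), Pomp (-0.11 to 0.019) and Psmb9 (-0.25 to 0.053). Other members turned sign as well and are counted above with all 44. The cause was not tested. The deviations of same-numbered libraries had a correlation of -0.04 over the genes tested. With only 1 replicate difference per group, this value cannot tell whether same-numbered libraries were grown or prepared together. With the replicate block, 222 genes were higher and 334 lower, 1 member (Psme2, limma adjusted p = 0.0374) was lower, and Psme1 was not called. With 2 libraries a group, a fit without 1 library takes its spread from the other group and assumes that the lone library varies alike.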
